A study of Homo sapiens with 39 samples.

Results

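WM115, an established human melanoma line, was compared as unedited wild-type cells (WT) and as 4 clones, each carrying a deletion of a regulatory region near SOX10. The comparison asked which genes stood apart from WT in every clone, whichever region was missing. Clones 1.1 and 1.2 lacked the region called R1 and clones 4.1 and 4.2 the region called R4. A gene was counted when the mean log2(TPM + 1) of each of the 4 clones lay above the highest, or below the lowest, of the 4 WT libraries. Of 16685 genes tested in the 18 libraries, 2201 (13.2%) met this rule: 718 (4.3%) were higher in all 4 clones and 1483 (8.89%) were lower.

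The WT group had 4 libraries, clone 1.1 had 5, and clones 1.2, 4.1 and 4.2 had 3 each, from a series of 39 libraries. The same clone names exist in A375, another melanoma line, where 14 clone libraries stood against 4 WT libraries of that line. A further WM115 clone, 1.3 with 3 libraries, has a title naming R1 and a genotype label naming R4, so it was set beside the other clones and not counted with them. Each clone is the progeny of edited cells grown apart from WT, and its libraries repeat that clone. The labels do not say that the libraries came from separate cultures, so p-values measure the spread between libraries, and R1 and R4 were each represented by 2 clones.

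SOX10 is a transcription factor of the neural crest, of Schwann cells and of melanocytes, and in melanoma it maintains the pigment cell programme together with MITF. Enhancers are stretches of DNA that raise the transcription of a gene from a distance, and removing one can lower that gene in the cell types that use it. Single-cell cloning also passes on to a whole culture whatever set the founding cell apart, so a difference that all clones share can belong to the edit, to the cloning, or to the WT culture they are compared with. In this design these cannot be told apart.

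The abundance unit is TPM, a gene's length-corrected share of the transcripts in its library, scaled to the same total in every library. A difference is the mean log2(TPM + 1) of the clones minus that of WT, so it understates the change of genes near 0 TPM. A gene was called when the pooled limma fit of the 14 clone libraries against the 4 WT libraries gave an adjusted p under 0.05 and a difference of at least 1 in size. The pooled fit called 338 genes (2.03%), of which 91 (0.545%) were higher and 247 (1.48%) lower. Of these, 73 higher and 154 lower genes also lay beyond WT in all 4 clones. Selection and test used the same libraries, so one does not support the other.

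Some libraries stood apart. Library 3 of clone 1.2 correlated with the other 2 libraries of its clone at no more than 0.944 across genes, while every other library of the 5 groups correlated with at least 1 library of its own group at 0.971 or more. Its SOX10 level was 9.56 TPM beside 279 and 272 TPM in the other 2. Without it, 2291 genes lay beyond WT and 401 were called. WT library 3 was the WT library nearest to the clones for several genes named below, and without it 4023 genes lay beyond WT, 2194 of them among the 2201. The 3 libraries of clone 1.3 did not resemble each other most: library 1 was closest to library 3 of clone 4.2, library 2 to library 2 of clone 1.2, and library 3 to WT library 1. Libraries 1 and 2 of clone 1.2 were in turn closest to library 2 of clone 1.3. Whether libraries of clone 1.3 were exchanged with others was not tested, so its means, differences and calls are those of the libraries so labelled.

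Melanoma line markers were present in WT at a summed 1236 to 1620 TPM, and in the 14 clone libraries at 59.2 to 1841 TPM, the lowest being library 3 of clone 1.2. The highest in WT were SOX10 (449 to 553 TPM), S100A1 (419 to 501 TPM) and S100B (259 to 405 TPM). PRAME was at most 0.414 TPM in WT and 18.5 TPM in the clones. MLANA had 3.67 to 54.4 TPM in WT and 0 to 6.85 TPM in the clones. Of the immune cell markers only CD68, which melanoma cells also express, exceeded 1 TPM in WT, while TYROBP was listed at 0 there. The endothelial markers summed to at most 3.44 TPM in WT and 16.5 TPM in the clones. Keratinocyte markers other than KRT10 stayed under 1 TPM in WT, with KRT5, KRT1 and DSG3 listed at 0. In the clones TP63 reached 7.65 TPM, KRT14 3.65 TPM and SFN 1.6 TPM, and KRT5 was listed at 0. The 8 fibroblast markers summed to 36.5 to 99.8 TPM in WT and 11.9 to 62.9 TPM in the clones. In WT most of this was FAP and LUM, while in the clones LUM reached at most 4.24 TPM, THY1 18.8 TPM and PDGFRB 11.4 TPM. LUM, which encodes the proteoglycan lumican, was called lower in the pooled clones (-1.90, limma adjusted p 0.00518). Read depth is unknown because no counts were given.

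The promoters of 3 of the genes are shown because each holds a short binding motif and the gene lay beyond WT in all 4 clone means. They are the 250 bases before a RefSeq gene start (GRCh38.p14), written 5′ to 3′ along the gene. Capitals mark E-boxes, CACGTG in PLA2G6 and CATGTG or its reverse complement CACATG in DCT, and TGAGTCA, the AP-1 motif, in PLAUR.

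PLA2G6 promoter, chr22:38181831-38182080, minus strand: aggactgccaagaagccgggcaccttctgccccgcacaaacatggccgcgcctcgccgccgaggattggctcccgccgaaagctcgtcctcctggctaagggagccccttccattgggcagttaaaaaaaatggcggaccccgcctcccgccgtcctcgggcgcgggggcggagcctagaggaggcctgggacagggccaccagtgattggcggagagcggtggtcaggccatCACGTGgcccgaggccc

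DCT promoter, chr13:94479683-94479932, minus strand: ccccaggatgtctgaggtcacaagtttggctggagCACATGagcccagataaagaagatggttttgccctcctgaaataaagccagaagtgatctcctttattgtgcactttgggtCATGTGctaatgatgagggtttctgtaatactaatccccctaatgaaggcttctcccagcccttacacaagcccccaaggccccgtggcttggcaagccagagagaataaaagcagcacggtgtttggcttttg

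PLAUR promoter, chr19:43670170-43670419, minus strand: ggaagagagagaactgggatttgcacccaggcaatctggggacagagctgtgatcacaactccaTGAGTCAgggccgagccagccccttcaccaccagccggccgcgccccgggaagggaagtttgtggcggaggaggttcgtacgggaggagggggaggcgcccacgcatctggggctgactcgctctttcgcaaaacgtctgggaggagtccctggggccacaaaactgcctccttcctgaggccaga

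CACGTG starts at position -17 from the PLA2G6 start, the DCT matches start at -134 and -215, and TGAGTCA starts at -186 in PLAUR. A second DCT start in the table held none of the motifs. The promoters of ID1, SPP1, VCAN and LCP1, genes also beyond WT in all 4 clone means, were searched and held none. These are matches of letters on either strand and are not evidence of binding. Among 27305 genes with a promoter in the RefSeq table, 11.46% held CATGTG, 7.73% held CACGTG and 5.19% held TGAGTCA. That set was not limited to genes that passed the expression filter, so it is unlike the sets below. Of the 988 lower genes that matched the table, 8.81% held CATGTG, 12.65% held CACGTG and 3.74% held TGAGTCA. Of the 416 higher genes that matched, the shares were 6.97%, 9.38% and 6.01%.

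PLA2G6, a calcium-independent phospholipase that remodels membrane lipids, was among the 12 genes furthest below WT and, after DCT, the one of them with the highest WT level. It had 324, 377, 257 and 354 TPM in WT. Clone 1.1 had 30.0, 25.8, 15.8, 68.7 and 85.2 TPM, and clone 1.2 had 88.0, 93.7 and 9.46 TPM. Clone 4.1 had 40.4, 36.3 and 76.1 TPM, and clone 4.2 had 19.5, 36.4 and 104.5 TPM. All 14 clone libraries lay below the lowest WT library. PLA2G6 fell by 2.92 on the log2 scale (SE 0.49, limma adjusted p 0.00175), and the 4 clones were close to each other at -3.08, -2.87, -2.73 and -2.91. The gene lies on chromosome 22 (38111495 to 38205690, minus strand, GRCh38), near SOX10 on the same strand. In clone 1.3, which is tested against the same WT libraries, the 3 libraries had 206, 111 and 674 TPM and the difference was -0.38 (limma adjusted p 0.811). With clone 1.3 added to the pool, PLA2G6 was no longer called.

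SOX10 itself (chromosome 22, 37970686 to 37987422, minus strand) lay below WT in all 4 clone means but was not called. WT libraries had 553, 540, 485 and 449 TPM. Clone 1.1 had 482, 405, 420, 342 and 391 TPM, clone 4.1 had 465, 360 and 390 TPM, and clone 4.2 had 506, 321 and 438 TPM. Single libraries of clones 1.1, 4.1 and 4.2 reached into the WT range. The clone differences for SOX10 were -0.32, -2.44, -0.33 and -0.28, and the pooled difference was -0.77 (SE 0.66, limma adjusted p 0.51). Without library 3 of clone 1.2 the SOX10 difference was -0.40. The gene left the counted set when library 2 of clone 4.2 was left out.

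Within 500 kb of SOX10, 31 genes were tested, of which 8 lay below WT in all 4 clones and 1 above. Over all genes the shares were 8.89% below and 4.3% above, and over chromosome 22 they were 15.2% and 1.77%. LGALS1, which encodes galectin-1, a secreted lectin, was the one above: WT had 823 ± 306 TPM (SD, n = 4), and it rose by 1.16 on the log2 scale (SE 0.19, limma adjusted p 0.00146). Besides PLA2G6 and SOX10, the lower genes were ANKRD54, PICK1, SLC16A8, DDX17 and the noncoding genes AL031587.1 and AL022322.1. Of these, AL022322.1 fell by 1.16 (SE 0.18, limma adjusted p 0.000852) and AL031587.1 by 1.08 (SE 0.24, limma adjusted p 0.0102). MAFF, a small MAF transcription factor fell by 1.55 (SE 0.40, limma adjusted p 0.0242) but did not meet the 4-clone rule. MAFF overlaps one end of PLA2G6 on the opposite strand, and POLR2F spans SOX10 on the opposite strand. Where counting ignores strand, reads in such an overlap cannot be told apart. CARD10, a scaffold protein of NF-kB signalling in the same window, rose by 1.28 (SE 0.36, limma adjusted p 0.0362), also without meeting the 4-clone rule. These neighbours were picked for position, and PLA2G6 had the largest difference of those tested in the window. In A375, LGALS1 differed by 0.25 (SE 0.18) and PLA2G6 by -0.11 (SE 0.33), neither past the limma threshold.

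**Figure D1:**
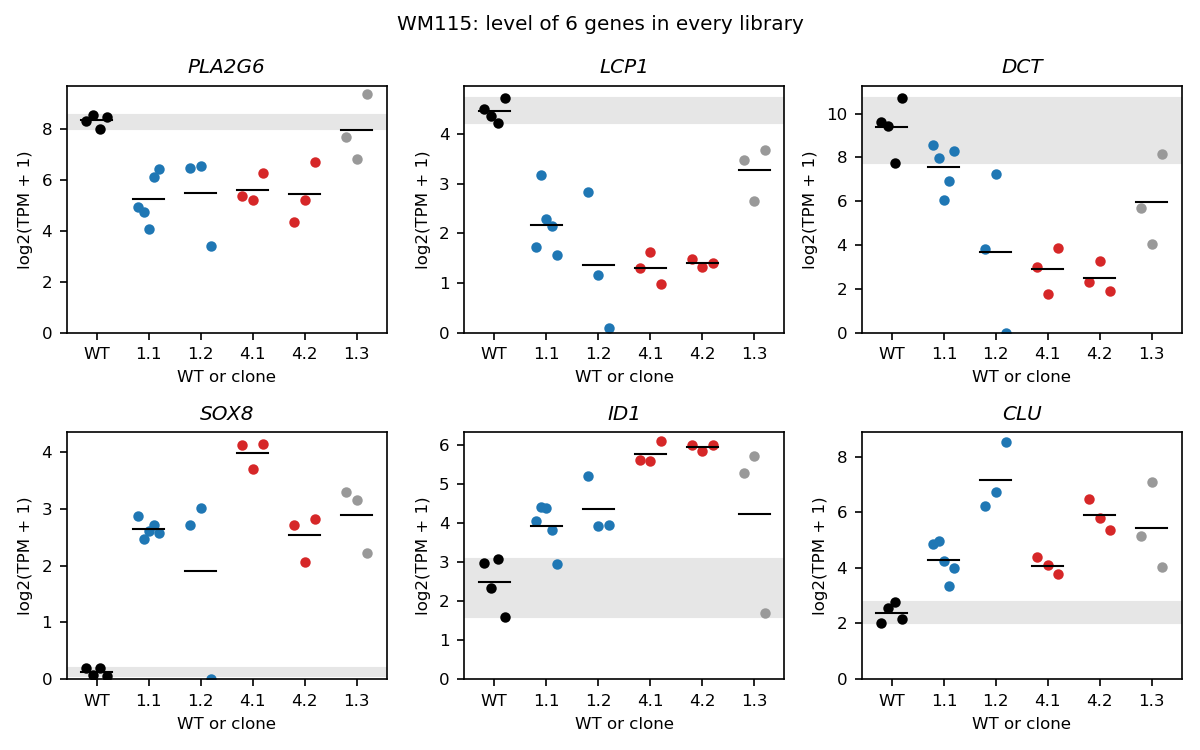
Level of 6 genes in every WM115 library as log2(TPM + 1), with a point per library, a bar at each group's mean and a grey band over the 4 WT libraries (blue, R1 clones; red, R4 clones; grey, clone 1.3). PLA2G6 and LCP1 lie below the WT band in all 14 clone libraries and CLU above it in all 14, while in SOX8 library 3 of clone 1.2 is listed at 0.

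Ranked by the smallest of the 4 clone differences, the gene furthest below WT was the long noncoding RNA AL353751.1 (ENSG00000232110, chromosome 10, 89283765 to 89292125, plus strand). WT libraries had 15.1, 20.3, 9.73 and 10.7 TPM. The 14 clone libraries had between 0 and 0.613 TPM, and the clone differences were -3.73, -3.34, -3.79 and -3.62. All 14 were under 1 TPM, so the gene passed the expression filter only through WT libraries. AL353751.1 fell by 3.64 (SE 0.17, limma adjusted p 1.58e-10), and it was the only gene still called when clone entered as a random block (limma adjusted p 8.62e-06). Clone 1.3 had 0.034, 0.554 and 0.238 TPM. All 3 of those libraries were below WT, including library 3, which over all genes was closest to WT. AC126323.1, a transcribed pseudogene, fell by 3.10 (SE 0.33, limma adjusted p 3.61e-05) from 10.5, 9.08, 6.52 and 16.8 TPM in WT to at most 2.61 TPM in the 14 clone libraries. In clone 1.3 the same pseudogene had 6.78, 2.91 and 12.6 TPM.

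Among the other genes furthest below WT, LCP1, which encodes the actin-bundling protein L-plastin and is best known from white blood cells, had 21.8, 19.7, 17.6 and 25.6 TPM in WT. Its highest clone library had 8.05 TPM, and LCP1 fell by 2.81 (SE 0.38, limma adjusted p 0.000266). ITGAM, the alpha subunit of a leukocyte integrin, had 3.43, 1.74, 0.189 and 10.96 TPM in WT and at most 0.104 TPM in any of the 14 clone libraries (difference -1.82, SE 0.33, limma adjusted p 0.00248). WT library 3 was near the clones for ITGAM, which passed the expression filter only through WT libraries. PTPRC, a marker of all white blood cells, was at most 0.15 TPM in WT and TYROBP was listed at 0 in WT. The part of other cells in the ITGAM and LCP1 values was not tested. GPRC5B, an orphan G protein-coupled receptor, had 54.3, 54.4, 19.2 and 54.2 TPM in WT and 3.54 to 15.7 TPM in the clones (difference -2.34, SE 0.31, limma adjusted p 0.000261). In clone 1.3 GPRC5B had 26.8, 15.3 and 123 TPM. BEST1, a chloride channel, fell by 2.43 (SE 0.46, limma adjusted p 0.00377) from 37.5 ± 14.1 TPM (SD, n = 4). The noncoding genes MIR3142HG (difference -2.72), KU-MEL-3 (-2.17) and AL389889.2 (-2.65) and the polymorphic pseudogene PKD1L2 (-2.35) complete the 12. A call was a condition for entering the 12, and 6 of them were below WT in every clone library.

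DCT, the melanin enzyme dopachrome tautomerase (chromosome 13, 94436808 to 94479682, minus strand), lay below WT in all 4 clone means, by unequal amounts. WT libraries had 785, 681, 215 and 1685 TPM. Clone 1.1 had 376, 249, 66.2, 119 and 309 TPM and so overlapped the lowest WT library. Clone 1.2 had 12.98, 148 and 0 TPM, clone 4.1 had 7.08, 2.37 and 13.7 TPM, and clone 4.2 had 3.89, 8.72 and 2.71 TPM. The clone differences were -1.82, -5.70, -6.50 and -6.89. DCT fell by 4.74 in the pooled fit (SE 1.34, limma adjusted p 0.0357). The call was lost without WT library 1, 2 or 4, without clone 4.1 and without clone 4.2. It was also lost with clone 1.3 added, under the replicate block, with a pseudocount of 0.1 and with no expression filter. In A375 DCT was at 0.123 ± 0.0432 TPM in WT (SD, n = 4) and was not tested.

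Of the 21 melanocytic differentiation genes tested, 3 lay below WT in all 4 clones (14.3%, against 8.89% of all genes) and none lay above. The 3 were DCT, SLC24A5 and IRF4. The median difference of the list was -1.48, beside -0.0848 over all genes tested. The pooled fit called 7 of the 21 lower, against 1.48% of all genes: TYR (-2.31), DCT, MLANA (-3.19), SLC45A2 (-1.48), SLC24A5 (-2.46), CAPN3 (-4.23) and ABCB5 (-3.49). TYR is the rate-limiting enzyme of melanin synthesis, SLC45A2 and SLC24A5 are melanosome transporters, and MLANA is a melanosome protein. SLC24A5 had 34.9, 31.6, 10.6 and 54.1 TPM in WT. Clone 1.1 had 5.85 to 18.8 TPM and clone 1.2 had 19.5, 20.98 and 0.03 TPM, so both R1 clones reached the lowest WT library. Clones 4.1 and 4.2 had at most 3.52 TPM. SLC24A5 left the counted set without library 3 of clone 1.1 or of clone 1.2 and with median-of-ratios or quantile scaling, which also ended its call. IRF4, a transcription factor of the pigment pathway, had 42.7 ± 10.5 TPM in WT and a pooled difference of -1.25 (SE 0.55, limma adjusted p 0.176). MITF had a difference of -2.05 (limma adjusted p 0.0538), PMEL of -1.07 (limma adjusted p 0.404), and neither lay below WT in all 4 clones. In A375, 1 of the 10 melanocytic genes tested lay below that line's WT in all 4 clones and none above. Over all genes tested in A375 these shares were 0.509% and 0.863%.

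SOX8, a relative of SOX10 in the same SOX subgroup, was the gene furthest above WT when ranked by the smallest of its 4 clone differences. WT libraries had 0.142, 0.049, 0.150 and 0.041 TPM. Clone 1.1 had 6.33, 4.52, 5.12, 5.62 and 4.98 TPM, clone 4.1 had 16.5, 12.1 and 16.7 TPM, and clone 4.2 had 5.56, 3.20 and 6.07 TPM. Clone 1.2 had 5.61 and 7.07 TPM in libraries 1 and 2, while in library 3 SOX8 was listed at 0. SOX8 rose by 2.63 (SE 0.47, limma adjusted p 0.00257), or 2.84 without that library. The neighbouring long noncoding RNA CEROX1 (chromosome 16, 975761 to 981596, minus strand) starts next to SOX8 (981808 to 986979, plus strand), and the genes are transcribed in opposite directions. CEROX1 had at most 0.103 TPM in WT. In 13 of 14 clone libraries it had 0.847 to 13.2 TPM, while library 3 of clone 1.2 had 0.023 TPM, so the pair was low in the same library. CEROX1 rose by 2.08 (SE 0.48, limma adjusted p 0.0138), a call lost without WT library 1, 2 or 4. Clone 1.3 had 8.83, 7.92 and 3.70 TPM of SOX8 and 7.80, 4.55 and 3.93 TPM of CEROX1, all above WT.

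ZNF826P, a zinc finger pseudogene, was also near 0 in WT and lies on chromosome 19. It had at most 0.068 TPM in WT and 0.740 to 4.28 TPM in the 14 clone libraries, with a difference of 1.75 (SE 0.24, limma adjusted p 0.000326). SOX8, CEROX1 and ZNF826P stayed under 1 TPM in every WT library, so they passed the expression filter only through clone libraries. Their p-values carry that limit. In clone 1.3 ZNF826P had 3.29, 2.20 and 2.53 TPM. Clone 1.3 library 3 lay beyond WT on the clones' side for AL353751.1, SOX8, CEROX1 and ZNF826P, and also for CLU (15.3 TPM), LCP1 (11.8 TPM), AL389889.2 (2.985 TPM) and RMRP (10.95 TPM). The same library lay inside the WT range for ID1 (2.24 TPM), ID3 (3.71 TPM), TFPI2 (13.5 TPM) and IGFBP5 (9.8 TPM). TMEM59L (0.306 TPM), ARRDC3 (3.0 TPM) and AC126323.1 were also inside that range. It lay beyond WT on the other side for PLAUR (12.3 TPM), PLA2G6 (674 TPM) and GPRC5B (123 TPM). The remaining furthest genes are not listed for this library.

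ID1 and ID3 encode inhibitors of basic helix-loop-helix transcription factors and are classic targets of BMP signalling. ID1 had 6.94, 4.06, 7.48 and 1.99 TPM in WT. Clone 1.1 had 15.7, 20.3, 19.8, 13.2 and 6.78 TPM, clone 1.2 had 36.3, 14.3 and 14.6 TPM, clone 4.1 had 48.5, 47.2 and 67.5 TPM, and clone 4.2 had 62.8, 56.7 and 63.6 TPM. Library 5 of clone 1.1 lay inside the WT range, and both R4 clones were higher than both R1 clones. ID1 rose by 2.35 (SE 0.51, limma adjusted p 0.00925) and was no longer called without WT library 4. ID3 had 4.72 ± 1.52 TPM in WT and clone means of 13.9, 19.6, 99.99 and 60.2 TPM, with clone differences of 1.35, 1.51, 4.17 and 3.37. ID3 rose by 2.42 (SE 0.66, limma adjusted p 0.0296). That call was lost when any 1 WT library or clone 4.2 was left out and under the replicate block. Of the 17 ID and BMP genes tested, 3 lay above WT in all 4 clones (17.6%, against 4.3% of all genes) and none lay below. They were ID1, ID3 and the Notch and BMP target HEY1 (0.62, limma adjusted p 0.0748). ID2 rose by 1.37 (limma adjusted p 0.0453) without meeting the 4-clone rule.

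Another 7 genes complete the 12 furthest above WT. CLU, which encodes the extracellular chaperone clusterin, had 3.09, 4.91, 5.81 and 3.52 TPM in WT. Clone means were 20.2, 184, 16.2 and 61.5 TPM, and the lowest clone library had 9.07 TPM, so the groups did not overlap. CLU rose by 2.82 (SE 0.67, limma adjusted p 0.0159), a call lost without WT library 1, 2 or 4. TFPI2, a serine protease inhibitor of the matrix, had 14.3, 14.7, 22.9 and 6.69 TPM in WT and 25.1 to 94.4 TPM in the clones. TFPI2 rose by 1.97 (SE 0.33, limma adjusted p 0.00152). PLAUR, the receptor of the plasminogen activator urokinase, had 21, 24.2, 41.1 and 20.5 TPM in WT and clone means of 61.1, 81.2, 72.9 and 74.4 TPM. Only library 5 of clone 1.1, at 39.4 TPM, lay inside the WT range, and PLAUR rose by 1.40 (SE 0.19, limma adjusted p 0.000312). IGFBP5, which binds insulin-like growth factors, rose by 2.0 (limma adjusted p 0.0187), TMEM59L by 1.98 (limma adjusted p 0.0148), and ARRDC3, an arrestin-domain protein of receptor trafficking, by 1.63 (limma adjusted p 0.00865). The IGFBP5 call was lost without WT library 1 or 4, that of TMEM59L without WT library 2, and that of ARRDC3 without WT library 4. RMRP, the RNA of RNase MRP, was the last with a difference of 1.44 (limma adjusted p 0.0414), a call lost in 18 of 37 fits, 9 of which left out a single library. RMRP is not polyadenylated and the libraries were poly-A selected, WT library 1 listed it at 0, and it left the counted set without library 3 of clone 1.2 or library 1 of clone 4.1. Here too a call was a condition of entry, and 5 of the 12 were above WT in every clone library.

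**Figure D2:**
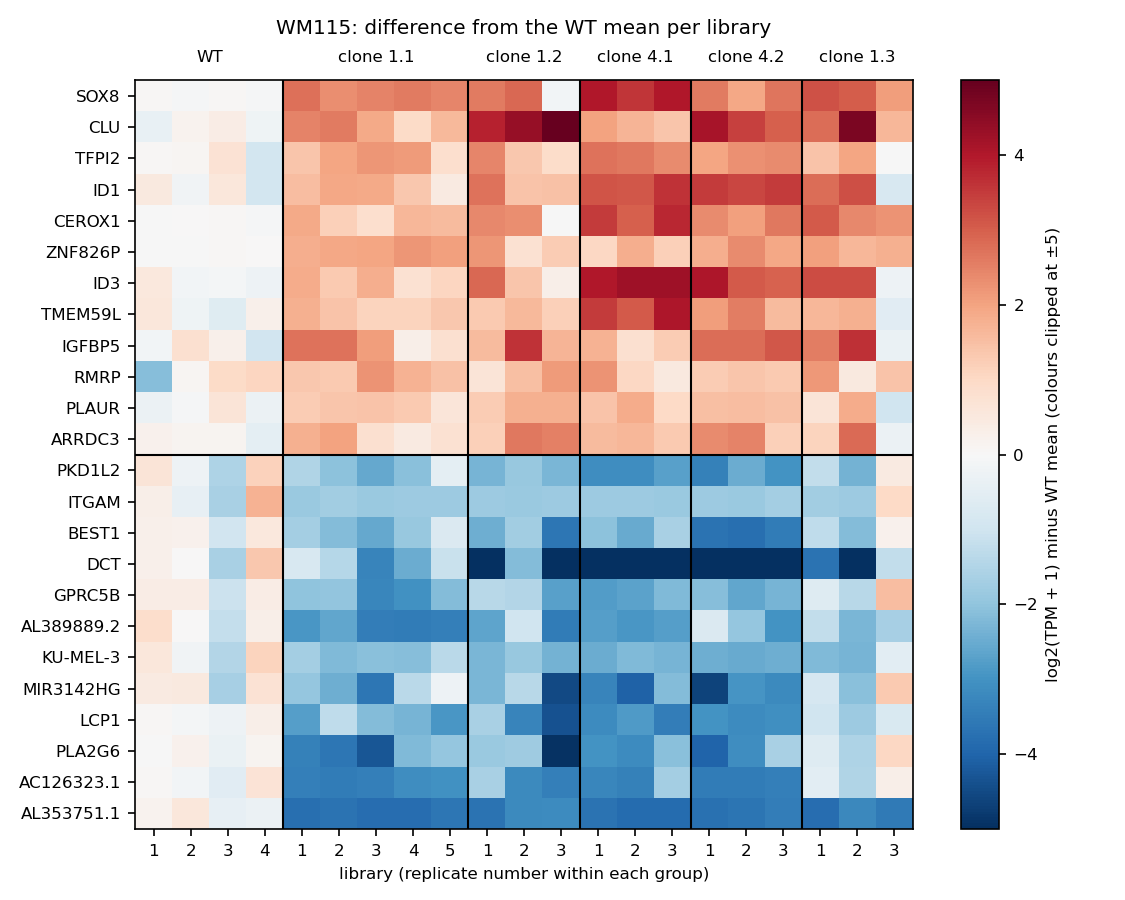
Difference of each WM115 library from the WT mean in log2(TPM + 1) for the 12 genes furthest above and the 12 furthest below WT in all 4 clones, with libraries in columns and colours clipped at 5. In clone 1.3 library 3, at the right edge, SOX8, CEROX1, ZNF826P and AL353751.1 have the colour of the 4 clones, whereas PLA2G6, GPRC5B and MIR3142HG are above the WT mean.

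Of the 24 furthest genes, 23 or 24 of which passed the expression filter in each of these fits, 7 lost their call without WT library 1, 7 without WT library 2, 1 without WT library 3 and 8 without WT library 4. Leaving out library 3 of clone 1.2 took the call from none of them. Median-of-ratios scaling and quantile normalization also took the call from none. Limma with 1 value per clone, 4 clone means against 1 WT mean, called 0 genes of all 16685, with 703 at an unadjusted p under 0.05. In that fit WT is a single value, assumed to vary like the clones, so it has little power to pass the threshold. In the random-block fit 1 gene was called and 1046 had an unadjusted p under 0.05, with an estimated correlation within clones of 0.489. The pooled calls treat libraries as units.

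Most of the 2201 differences were small. The median difference was 0.526 among the higher and -0.537 among the lower genes, and in 1702 of the 2201 (77.3%) the smallest of the 4 clone differences was under 0.5 in size. A stricter set, in which every one of the 14 clone libraries lay beyond every WT library, held 218 higher (1.31%) and 310 lower genes (1.86%). Clone differences of at least 1 in all 4 clones were found in 26 higher (0.156%) and 72 lower genes (0.432%). At the edge of the rule, the lower gene SLC25A5 passed by 6.68e-05 on the log2 scale and PAXX had a margin of -0.000131, and 671 lower genes lay within 0.1 inside the edge and 988 within 0.1 outside it. On the higher side, AC046176.1 passed by 5.16e-05, CAMK1G missed at a margin of 0, and 310 genes lay within 0.1 inside and 562 outside.

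The direction of the whole set depended on scaling. As deposited, 32.6% of the counted genes were higher and 67.4% lower. With median-of-ratios scaling 1106 were higher and 892 lower (55.4% higher), and with quantile normalization 1068 and 969 (52.4% higher). With mitochondrially encoded genes removed and TPM rescaled, 459 were higher and 2246 lower (17% higher), and with ribosomal protein genes removed as well, 641 and 1604 (28.6% higher). The median difference of all tested genes moved from -0.0848 as deposited to 0.0107 after median-of-ratios scaling and to -0.168 without mitochondrially encoded genes. The split of the pooled calls moved from 26.9% higher as deposited to 38.4% with median-of-ratios scaling and 37.5% with quantile normalization.

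Cytosolic ribosomal proteins, the components of the ribosome, formed the list with the most genes above WT. Of 82 tested, 63 (76.8%) lay above WT in all 4 clones, against 4.3% of all genes, and none lay below. Their median difference was 0.46, and the members above WT ranged from 0.19 to 1.04. RPS27A had 878, 768, 1067 and 1000 TPM in WT and 1435 to 1912 TPM in the 14 clone libraries, with a difference of 0.86 (SE 0.10, limma adjusted p 6.94e-05). RPS20 had 674 ± 101 TPM in WT (SD, n = 4) and was the 1 member past the size threshold of a call, with a rise of 1.04 (SE 0.13, limma adjusted p 0.000142). That call was lost without WT library 2 and with quantile normalization. RPS3A (0.95), RPL9 (0.83), RPS14 (0.80) and RPL27 (0.80) were above WT in every clone library. The summed share of TPM of this list ran from 12.0% to 13.6% over the WT libraries and from 16.2% to 18.6% over the 14 clone libraries. In clone 1.3 it was 17.6% in library 1, 18% in library 2 and 11.5% in library 3. The count was 69 with median-of-ratios scaling and 52 without mitochondrial genes, but quantile normalization, which forces all libraries to 1 distribution, gave 37 above and 1 below. In A375 the share was 18.9% to 27.3% in WT and 17.9% to 28.1% in the 4 clones, and none of the 82 genes tested there lay beyond WT in all 4 clones.

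Genes encoded on mitochondrial DNA lay on the other side of WT. Of 18 tested, 14 lay below WT in all 4 clones (77.8%, against 8.89% of all genes), with differences from -0.55 to -1.07, and none above. MT-ND2, a subunit of respiratory complex I, had 8410, 8621, 8616 and 8785 TPM in WT and at most 7971 TPM in any of the 14 clone libraries. It fell by 1.07 (SE 0.29, limma adjusted p 0.0281), and it was the 1 member called, a call lost when any 1 WT library was left out and with median-of-ratios or quantile scaling. The spread within clones was wide: clone 1.1 had 3517, 2611, 2778, 7410 and 7971 TPM of MT-ND2. Mitochondrially encoded genes took 13.7% to 15.6% of TPM in WT and 4.71% to 14.4% in the clones. Nuclear genes of oxidative phosphorylation lay nearer the shares of all genes, with 10 of 79 below WT (12.7%, against 8.89%) and 2 above (2.53%, against 4.3%). SDHA, a subunit of complex II, had 138 ± 18.6 TPM in WT and a difference of -0.74 (SE 0.14, limma adjusted p 0.00427), and UQCRC1, of complex III, had -0.60 (SE 0.12, limma adjusted p 0.00409). ATP5F1B, of the ATP synthase, had -0.67, NDUFS1 -0.41 and COX5A -0.40, and these 3 left the counted set with median-of-ratios scaling. No nuclear member reached the size threshold.

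**Figure D3:**
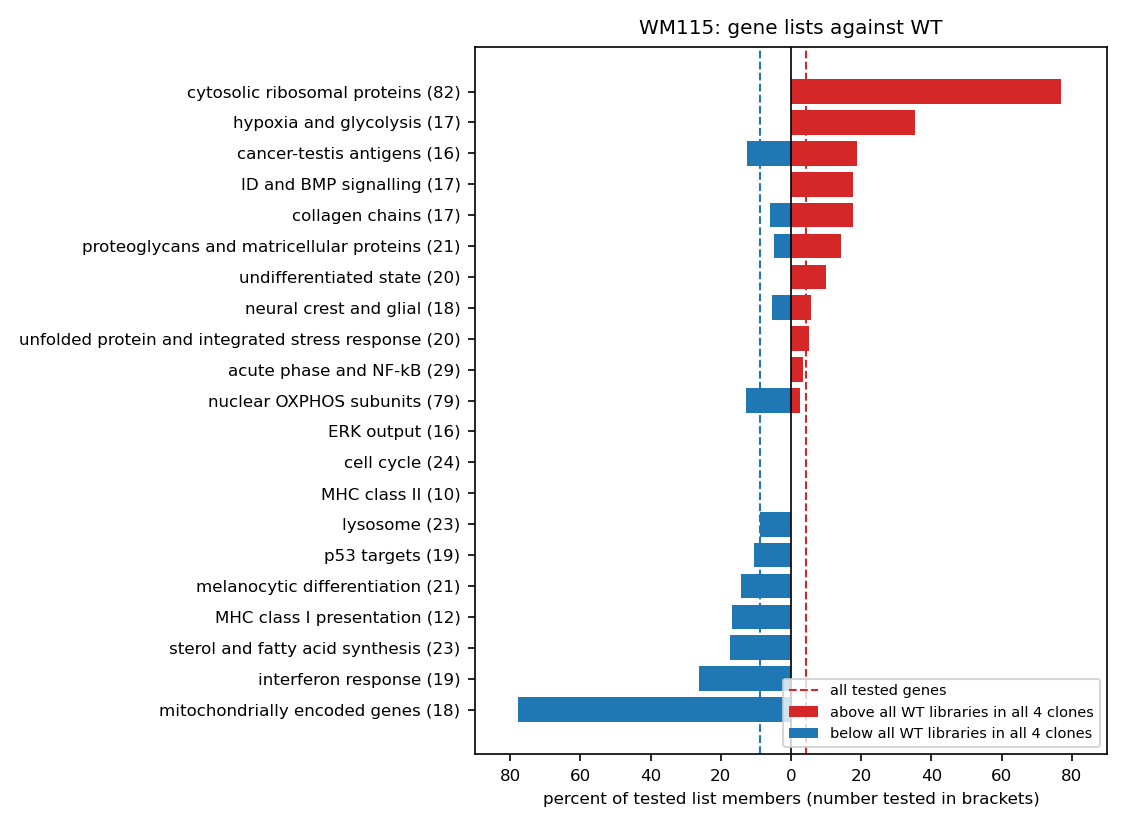
Share of the tested members of each gene list that lay above (red, right) or below (blue, left) all 4 WT libraries in all 4 clone means, in percent, with the number tested in brackets and dashed lines at the shares of all tested genes. Ribosomal proteins reach 76.8% above and mitochondrially encoded genes 77.8% below, against 4.3% and 8.89% of all genes.

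Hypoxia and glycolysis genes were the next list by share above WT. Of 17 tested, 6 lay above (35.3%, against 4.3% of all genes) and none below. CA9, a carbonic anhydrase induced by low oxygen, had 26.7, 35.6, 38.3 and 26.3 TPM in WT. Its clone values ran from 10.5 to 550 TPM, and libraries of clones 1.1 and 4.2 lay below the WT range, so CA9 had a difference of 1.5 with an SE of 0.83 (limma adjusted p 0.282). LDHA, which makes lactate from pyruvate, had 966 ± 266 TPM in WT and rose by 1.08 (SE 0.30, limma adjusted p 0.034). That call was lost without WT library 1, 2 or 4, without clone 4.1 and without clone 4.2. ADM, which encodes adrenomedullin, rose by 1.27 (limma adjusted p 0.04) without meeting the 4-clone rule. PDK1 (0.87), BNIP3 (0.95), P4HA2 (0.60) and P4HA1 (0.62) lay above WT in all 4 clone means and did not pass the limma threshold. Among the 8 WM115 clone libraries in which mitochondrial genes took more than 7.5% of TPM, none of the 6 genes lay above WT in all 4 clone means. These were 2 libraries of clone 1.1, 3 of clone 1.2, 1 of clone 4.1 and 2 of clone 4.2. The value of clone 4.1 was thus that of 1 library, and whether mitochondrial share bears on the loss was not tested. This grouping by library was chosen after the data were seen.

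Among sterol and fatty acid synthesis genes, 4 of 23 lay below WT in all 4 clones (17.4%, against 8.89% of all genes) and none above, and the median difference was -0.71. MVK, mevalonate kinase, had a difference of -0.80 (SE 0.16, limma adjusted p 0.00684) and FASN, fatty acid synthase, of -0.96 (SE 0.23, limma adjusted p 0.0176). ACACA, acetyl-CoA carboxylase, had -0.47 (limma adjusted p 0.104). MVK, FASN and ACACA left the counted set with median-of-ratios scaling. The pooled fit called 4 of the 23 lower, against 1.48% of all genes, among them HMGCS1 (-1.87), DHCR7 (-1.21) and MVD (-1.19), which did not meet the 4-clone rule.

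Interferon-stimulated genes had 5 of 19 members below WT in all 4 clones (26.3%, against 8.89% of all genes) and none above, with none past the size threshold of a call. IFI6 had a difference of -0.79 (SE 0.19, limma adjusted p 0.0153), OAS2 of -0.76 (limma adjusted p 0.0346), OAS1 of -0.66 (limma adjusted p 0.0236), USP18 of -0.67 (limma adjusted p 0.0706) and OAS3 of -0.58 (limma adjusted p 0.0599). OAS1, OAS2 and OAS3 make the activator of the antiviral RNase L and lie side by side on chromosome 12. IFI6, OAS2 and USP18 left the counted set with median-of-ratios scaling. In the MHC class I list, TAP2, which carries peptides into the endoplasmic reticulum, had 180, 149, 152 and 143 TPM in WT and at most 117 TPM in a clone library (difference -0.79, SE 0.14, limma adjusted p 0.00257). HLA-F was the other of 2 members below among 12 tested (16.7%, against 8.89% of all genes). None of the 10 MHC class II genes lay beyond WT in all 4 clones.

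Matrix genes lay on both sides of WT. VCAN, the proteoglycan versican, had 14.9, 14.7, 9.45 and 6.57 TPM in WT and 18.3 to 95.1 TPM in the 14 clone libraries, and rose by 1.63 (SE 0.31, limma adjusted p 0.00377). ACAN, aggrecan, had at most 0.749 TPM in WT and at least 1.77 TPM in every clone library. It passed the expression filter only through clone libraries. ACAN rose by 2.49 (SE 0.58, limma adjusted p 0.014), a call lost without WT library 1, 2 or 4. COL6A1 and COL6A2, neighbouring genes of collagen VI on chromosome 21, had differences of 1.3 and 1.5 (limma adjusted p 0.0401 and 0.0446). Both calls were lost when any 1 WT library, clone 4.1 or clone 4.2 was left out. COL16A1 fell by 1.33 (SE 0.41, limma adjusted p 0.0494), a call that 26 other settings ended. SPP1, the secreted phosphoprotein osteopontin, had 624, 546, 403 and 896 TPM in WT. Clone 1.1 had 105 to 307 TPM, clone 1.2 had 80.0, 322 and 47.9 TPM, and both R4 clones had at most 29.2 TPM. SPP1 fell by 3.31 (SE 0.93, limma adjusted p 0.0358), a call also lost when any 1 WT library, clone 4.1 or clone 4.2 was left out. Of the genes of an undifferentiated melanoma state, CAV1, the main protein of caveolae, rose by 1.41 (SE 0.22, limma adjusted p 0.000852) and LOXL2, a collagen crosslinking enzyme, by 1.25 (SE 0.29, limma adjusted p 0.0127), the latter call lost without WT library 1 or 4. These were 2 of 20 above WT in all 4 clones (10%, against 4.3% of all genes), and none lay below.

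GDF15, a secreted stress cytokine in the list of p53 targets, had 1805, 1850, 628 and 2476 TPM in WT. Clone means were 587, 540, 351 and 133 TPM, and WT library 3 lay among the values of clones 1.1 and 1.2. GDF15 fell by 2.14 (SE 0.53, limma adjusted p 0.0198), a call lost without WT library 1, 2 or 4, and it left the counted set without library 3 of clone 1.1 or of clone 1.2. MAGEC1, a cancer-testis antigen, lay below WT in all 14 clone libraries but mainly in 1 clone: its differences were -5.36 in clone 1.1 and -0.90, -0.58 and -0.92 in the others. CTAG1B, another cancer-testis antigen, had 1.01, 2.63, 1.68 and 5.36 TPM in WT and at most 0.539 TPM in the clones. It passed the expression filter only through WT libraries. CTAG1B fell by 1.55 (SE 0.21, limma adjusted p 0.00031). Of the 16 cancer-testis antigens tested, 3 lay above WT in all 4 clones (18.8%, against 4.3% of all genes) and these 2 below (12.5%, against 8.89%). The 3 above were MAGEB2 (0.59), GAGE1 (0.36) and PAGE5 (0.33), and none of the 3 passed the limma threshold. MAGEB2 and PAGE5 lay above WT in every clone library. MAGEB2 had at most 0.037 TPM in WT and reached 1 TPM only in clone 4.1. GAGE1 was listed at 0 in WT and had means of 0.03 and 0.0753 TPM in clones 1.1 and 4.1. MAGEB2 and GAGE1 passed the expression filter only through clone libraries, so the 18.8% depends in part on that filter. None of 24 cell cycle genes and none of 16 genes of ERK output lay beyond WT in all 4 clones. Other lists were near the shares of all genes (4.3% above and 8.89% below). Of 18 neural crest and glial genes 1 lay above and 1 below (5.56% each), of 29 acute phase and NF-kB genes 1 lay above (3.45%), of 20 stress response genes 1 lay above (5%), and of 23 lysosomal genes 2 lay below (8.7%). The stress response gene was DDIT4, an inhibitor of mTOR signalling, which rose by 1.06 (SE 0.24, limma adjusted p 0.0133), a call lost without WT library 1 or 4 and under the replicate block.

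The counted genes were spread unevenly over chromosomes. On chromosome 8, 113 of 571 tested genes (19.8%) lay above WT and 2.8% below, and the median difference of the chromosome was 0.41, 0.16, 0.10 and 0.09 in clones 1.1, 1.2, 4.1 and 4.2. Chromosome 16 had 19.6% below and 2.12% above, with medians of -0.114, -0.235, -0.464 and -0.283. Chromosome 13 had 20.7% below and 0.987% above, with medians of -0.30, -0.31, 0.02 and -0.59, so clone 4.1 did not share the shift. Chromosome 22, which holds SOX10, had 15.2% below, and its median was -0.45 in clone 1.2 against -0.05 to -0.09 in the others. CLU, LOXL2 and RPS20 lie on chromosome 8, and DCT and LCP1 on chromosome 13. GPRC5B, ITGAM and PKD1L2 lie on chromosome 16, where SOX8 and CEROX1, both above WT, also lie. DNA copy number was not analysed here, and its part in these shares was not tested. By class, long noncoding RNAs had 10.4% below and 1.84% above, protein-coding genes 8.71% and 4.52%, and pseudogenes 7.76% and 7.16%.

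**Figure D4:**
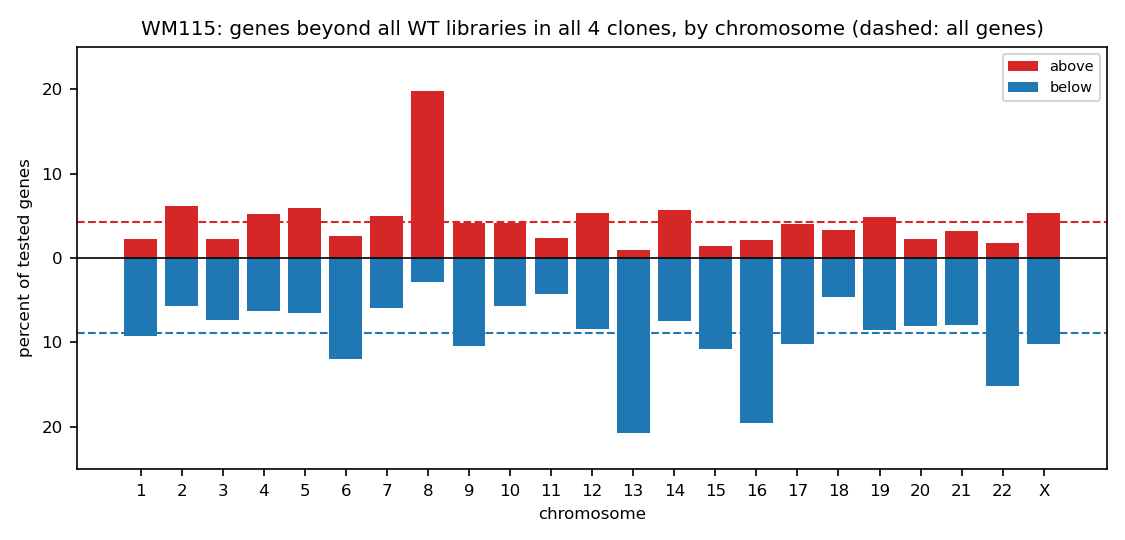
Share of tested genes on each chromosome that lay above (red) or below (blue, drawn downward) all 4 WT libraries in all 4 WM115 clone means, in percent, with dashed lines at the shares over all genes (chromosome Y and mitochondrial DNA not drawn). Chromosome 8 has the tallest bar above, 19.8%, and chromosomes 13 and 16 the tallest below, 20.7% and 19.6%.

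Among the counted genes, both R4 clones lay further from WT than both R1 clones in 544 (24.7%), and both R1 clones further in 228 (10.4%). Among the 14484 other tested genes these shares were 19.6% and 16.1%. ID1, ID3, SPP1 and DCT were of the first kind among the genes described, while PLA2G6 and AL353751.1 were about equal in all 4 clones. No test was made of this difference, since each region had 2 clones.

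A375 gave a comparison with WT libraries of its own. There 144 genes (0.863%) lay above and 85 (0.509%) below A375 WT in all 4 clones, 229 (1.37%) in all. Of the 2201 WM115 genes 1989 were tested in A375, and 6 lay on the same side in both lines, which is 0.273% of the WM115 genes and 2.62% of the A375 genes. They were PLAUR, STAM2 and CLDN4 above and RCBTB1, ZBED3-AS1 and ACSS1 below. None of the 6 passed the limma threshold in A375. Of the A375 genes above, 2.08% also lay above in WM115, where 4.3% of all genes did. Of those below, 3.53% also lay below in WM115, where 8.89% of all genes did. Another 11 lay on opposite sides. PLAUR differed by 0.46 in A375 (SE 0.14) against 1.40 in WM115. ACSS1, a mitochondrial acetyl-CoA synthetase, differed by -0.72 in A375 (SE 0.14, limma adjusted p 0.146) against -1.02 in WM115 (SE 0.31, limma adjusted p 0.046). The median A375 difference was -0.04 for genes higher in WM115 clones and 0.03 for genes lower, beside 0.03 for all genes tested in both lines. Limma called 3 genes in pooled A375 clones (0.018%), CTAG2, S100A16 and TSSC2, with 479 at an unadjusted p under 0.05.

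The difference between the effects in the lines passed limma's interaction test (adjusted p under 0.05) for 211 of 15167 genes (1.39%), 186 of them among the 2201. Since the 2201 were chosen for their WM115 effect, that excess is fixed in part by the choice. SOX8, with 3.15 ± 1.04 TPM in A375 WT, differed by -1.24 there (SE 0.51), and the effects in the lines were 3.87 apart (SE 0.72, limma adjusted p 0.0025). For PLA2G6 they were -2.81 apart (SE 0.61, limma adjusted p 0.011), although A375 WT had only 7.45 ± 3.17 TPM. For ID3 they were 3.15 apart (SE 0.83, limma adjusted p 0.0442), with A375 WT at 191 ± 37.4 TPM. For RPS27A they were 0.93 apart (SE 0.13, limma adjusted p 8.3e-05), with a difference of -0.07 in A375 (SE 0.09). CLU differed by 0.75 in A375 (SE 0.42) and its effects were 2.07 apart (SE 0.82, limma adjusted p 0.219).

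**Figure D5:**
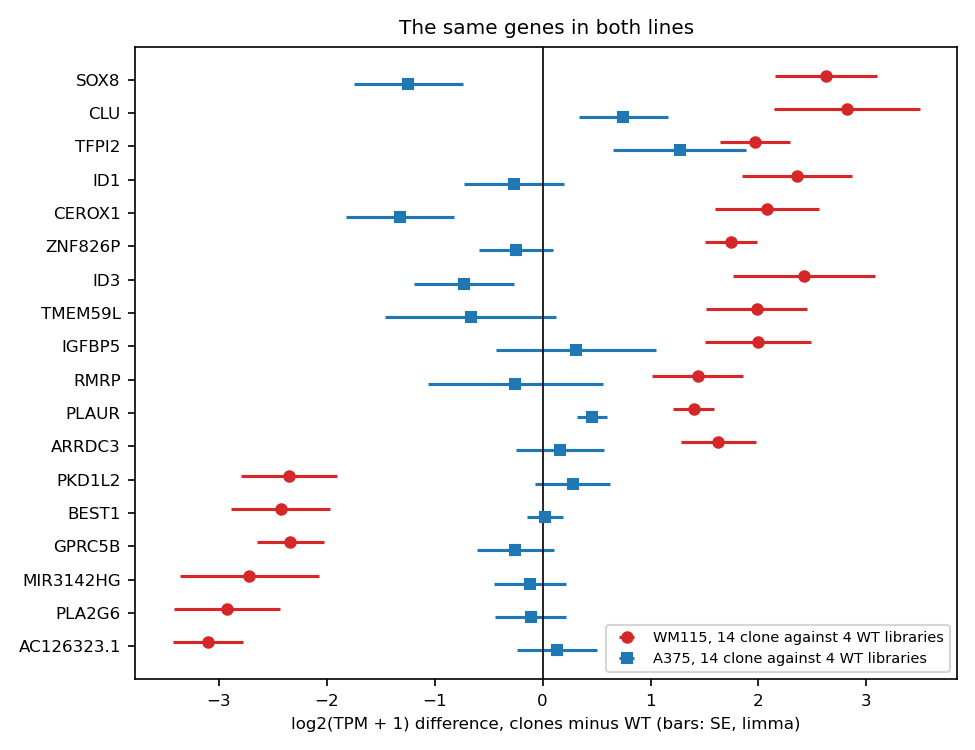
Pooled clone minus WT difference in log2(TPM + 1) for the 18 of the 24 furthest genes that were tested in both lines, in WM115 (red circles) and A375 (blue squares), with bars of 1 SE from limma. The A375 values of the 6 lower genes lie between -0.25 and 0.28, and those of the 12 higher genes between -1.32 and 1.27.

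Clone 1.3 shares the WT libraries with the other clones, so its values are only set beside theirs. Its median difference was 0.30 over the 718 higher genes and -0.28 over the 1483 lower genes, beside -0.03 over all genes. The medians of the 4 counted clones were 0.46, 0.54, 0.50 and 0.51 over the higher genes and -0.48, -0.47, -0.60 and -0.56 over the lower. Limma called 62 genes of 15516 in clone 1.3 (0.4%), 45 higher and 17 lower, and the count was 8 without its library 1 and 16 without its library 2. Counted as another clone, it reduced the genes beyond WT in all clones to 1540.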

How the data were processed

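Bulk RNA-seq of polyadenylated RNA was analysed from 18 WM115 libraries, with 3 libraries of WM115 clone 1.3 and 18 of A375 as comparisons. The deposited table holds TPM per gene, computed by the authors; DRAGEN and GRCh38 are named per the submitters' processing notes, and versions are not given in the sources used here. Of 60871 lines, 200 repeated a gene and were dropped, leaving 60671 genes. Another 6 columns matched no sample and were not used. Positions come from GENCODE 29 by Ensembl identifier and promoters from RefSeq.

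Values were analysed as log2(TPM + 1) for genes with at least 1 TPM in at least 3 libraries. A gene under 1 TPM throughout WT, or throughout the clones, entered only through the group where it was high. SOX8 and AL353751.1 are examples, and the p-values of such genes carry that limit. Clone and WT libraries were compared with limma 3.58.1 in R 4.3.3 (empirical Bayes with a variance trend, two-sided, Benjamini-Hochberg over all genes tested). A call needed an adjusted p under 0.05 and a difference of at least 1 in size. Read counts were not used here, so depth is unknown.

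Genes beyond WT in all 4 clones and called were ranked by the smallest clone difference. The 12 furthest in each direction were named, with up to 6 members of each list by the same ranking, and SOX10. Neighbours of SOX10, called list members outside the rule and genes shared with A375 were named after their values were seen. The members and the lists were chosen with earlier results of these data known. Alternatives covered the pseudocount, expression filter, scaling, leaving out libraries or clones, the unit of replication and a replicate block. A few list members are not reported here.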

Additional observations from a re-analysis of the deposited data

Results flagged for a closer look

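Outlying libraries were sought in WT and clone 1.1 only, for the named genes and for the mitochondrial and ribosomal protein shares. The clones with 3 libraries were not examined. Of 174 groups of values, 8 held a library far from the rest of its group. Chance gives about 1 in 20 groups, and the number found was near that share. In WT these were ARRDC3 in library 4 (2.50 TPM, the others 4.36 to 4.69), P4HA1 in library 3 (28.1, the others 40.4 to 42.9), MAGEB2 in library 1 (0, the others 0.034 to 0.037), GPRC5B in library 3 (19.2, the others 54.2 to 54.4) and MIR3142HG in library 3 (19.3, the others 87.1 to 106). In clone 1.1 they were PLAUR in library 5 (39.4 TPM, the others 63.3 to 69.8), GAGE1 in library 4 (0.15, the others 0) and USP18 in library 3 (2.71, the others 2.29 to 2.40).

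The effect in WM115 differed from that in A375 for 10 of the 18 furthest genes tested in both lines, by limma's interaction term at an adjusted p under 0.05. The WM115 minus A375 differences were 3.87 for SOX8, 3.40 for CEROX1, 1.99 for ZNF826P, 3.15 for ID3 and 0.94 for PLAUR. They were -2.63 for PKD1L2, -2.45 for BEST1, -2.09 for GPRC5B, -2.81 for PLA2G6 and -3.24 for AC126323.1. These genes were chosen for their WM115 effect.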

How the results depend on the processing

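The 338 pooled calls became 188 with a mean TPM of at least 5, 599 without clone 1.1, 522 without clone 1.2, 115 with clone 1.3 added, 652 with 1 coefficient per clone, 1 with clone as a random block, 0 with clone as the unit, 1364 with no minimum difference, and 143 among libraries of high mitochondrial share, a setting chosen after seeing the data. Leaving out 1 library gave 122 to 469 (122, 140, 469 and 125 without WT library 1, 2, 3 and 4). The 2201 genes beyond WT became 3696 without clone 1.1, 3713 without clone 1.2 and 528 when every library had to lie beyond WT, and 2076 to 4023 with 1 library left out. The 3 A375 calls became 6 with median-of-ratios scaling and 0 to 6 with 1 library left out. The 62 calls of clone 1.3 became 0 with a replicate block and 8 to 62 with 1 library left out. The replicate block gave 256 pooled calls (64 higher, 192 lower), 3 in A375 and 188 genes for the difference between lines. Replicate numbers did not pair the WM115 libraries: same-numbered WT and clone libraries deviated with correlations of -0.302 to 0.335. Fewer libraries or genes enter some of these fits, and otherwise the cause was not tested. None of the 85 named genes reversed in a fit that held it, and 30 stayed beyond WT in every setting that held them. Some settings lacked some of these genes: MAGEB2 was held in 26 settings and SOX8 in 32.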
